A study of Mus musculus with 26 samples.

Results

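The stromal cells described here were 79 of the 529 cells of the sort gate named Negative, and of 1881 single cells in all, from ovaries of mouse fetuses between embryonic days E11.5 and E18.5. A cell was a member when its summed level of Tcf21, Pdgfra and Dcn exceeded that of Kitl, Rspo1 and Wnt4. In addition, it had to hold under 100 CPM of Upk3b, under 200 CPM of Tyrobp and under 100 CPM of Asz1. CPM is the count of a gene's unique molecular identifiers (UMIs) divided by the cell's total over the genes of the table and multiplied by 1000000. The remaining Negative-gate cells comprised 321 supporting-dominant cells, in which the Kitl, Rspo1 and Wnt4 sum was the higher or equal one, 96 surface epithelial cells with at least 100 CPM of Upk3b, 25 cells with at least 100 CPM of Asz1 and 8 with at least 200 CPM of Tyrobp.

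All mice carried the same BVSC transgenes, Blimp1-mVenus and Stella-ECFP, whose fluorescence marks germ cells, and there was no untreated or mutant arm. Gonads of several embryos were combined at each stage, so a cell cannot be traced to an animal. The deposited cell table names the gates, and the labels used here do not define Negative. Females were told apart by PCR for Sry at E11.5 and by gonad shape at later stages. Single cells were picked by mouth pipette after trypsin digestion, and their 3′ ends were sequenced by a modified STRT-seq protocol. Libraries carry the numbers 1 to 26 here, and 16 of the 18 libraries with Negative-gate cells held members.

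Ovarian stroma is the connective tissue between and around follicles. Its mesenchymal cells make fibrillar collagens and small proteoglycans and later give rise to theca and other interstitial cells. Supporting cells of the fetal ovary are the precursors of granulosa cells, which surround each oocyte and make Kit ligand, WNT and R-spondin signals. Tcf21 encodes a transcription factor of mesenchymal progenitors, Pdgfra a receptor for platelet-derived growth factors and Dcn the collagen-binding proteoglycan decorin.

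The rule's values are a description, because they chose the cells. The median member held 755 CPM of Tcf21 and 484 CPM of Dcn, against 7.36 and 20.5 CPM in the median supporting-dominant cell. Pdgfra had a median of 261 CPM in members and was detected in 77 of them, against 172 of 321 supporting-dominant cells. All 3 genes were detected in 58 members, 2 of them in 19 and 1 in 2. The summed level of the stroma genes was more than 2 times that of the supporting genes in 67 members. The member closest to the boundary had sums of 1397 CPM and 1390 CPM, and the closest supporting-dominant cell had 872 CPM and 930 CPM. The highest Upk3b level in a member was 94.3 CPM, whereas the lowest among the 37 cells kept out by Upk3b alone was 311 CPM. For Asz1 these values were 95.1 CPM and 111 CPM over 10 cells, and for Tyrobp 66.2 CPM and 1119 CPM over 4 cells.

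Markers that the rule did not use stood with the label. Col1a2, which encodes a chain of type I collagen, was detected in 79 of 79 members. Ptn, the secreted growth factor pleiotrophin, was detected in 78. The median member held 1422 CPM of Col1a2 and 1240 CPM of Ptn, against 71.2 and 33.4 CPM in the median supporting-dominant cell. The median UMI count was 145013 in stromal cells, 174126 in supporting-dominant cells and 169228 in surface epithelial cells. The rule's limits on Tyrobp and Asz1 held for both main classes, so the shares of cells with their UMIs are a description. Tyrobp, a macrophage gene, had a UMI in 17.7% of stromal and 17.1% of supporting-dominant cells, and the germ cell gene Asz1 in 44.3% and 47.7%.

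Marker sums of other cell types in members are a description, since the rule's genes enter both sides. The 5 stroma markers include Tcf21, Pdgfra and Dcn. The surface epithelial, macrophage and germ cell lists hold Upk3b, Tyrobp and Asz1, which had to be low in members. In 4 of 79, the summed level of a surface epithelial, endothelial, macrophage, erythroid, germ cell, mesonephric or glial and neuronal marker list exceeded that of the 5 stroma markers, and in 7 that of the perivascular and smooth muscle list did. The latter list had medians of 1979 CPM in stromal and 1782 CPM in supporting-dominant cells. Endothelial markers had a median sum of 159 CPM and a range of 0 to 10230 CPM in stromal cells, against a median of 41.1 CPM in supporting-dominant cells. Germ cell markers had medians of 288 and 294 CPM, with a highest value of 11353 CPM in 1 stromal cell at E16.5. Macrophage markers had a median of 0 CPM over all cells of both classes, but of 163 CPM in the 17 members of E16.5, where 12 had a Tyrobp UMI, against 0 of 49 members at E11.5 to E15.5. Their sum was 178 and 150.0 CPM in the E16.5 stromal pools of libraries 21 and 23, against 157 and 98.3 CPM in the supporting-dominant pools of these libraries. Erythroid markers had a median sum of 67.3 CPM and a highest sum of 3779 CPM in stromal cells. The supporting-dominant cells had a median of 29.8 CPM and a highest sum of 12361 CPM. Hbb-bs of this list had a UMI in 42 of 79 members, while Alas2 was at 0 in all. Glial and neuronal markers had a median sum of 15.6 CPM and a highest sum of 2178 CPM in stromal cells, against a median of 0 CPM in supporting-dominant cells. Since cells had been picked singly, doublets were not called. The libraries shared 0 cell names.

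The RefSeq promoter windows of the 2 markers outside the rule are shown because both genes were high in every stromal pool. Each holds the 250 bases before the RefSeq start (GRCm38.p6), with the letters CCAAT, searched on both strands, in capitals. The Col1a2 window, chr6:4505368-4505617 on the plus strand, lies within the bounds that GENCODE gives the gene. The Ptn window, chr6:36810180-36810429, is on the minus strand and overlaps the 5′ end of the GENCODE gene.
Col1a2: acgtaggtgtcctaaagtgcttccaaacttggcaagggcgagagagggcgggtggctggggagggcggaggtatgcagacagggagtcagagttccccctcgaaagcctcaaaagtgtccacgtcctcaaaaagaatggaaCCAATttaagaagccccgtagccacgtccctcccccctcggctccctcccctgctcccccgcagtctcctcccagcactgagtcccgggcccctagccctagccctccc
Ptn: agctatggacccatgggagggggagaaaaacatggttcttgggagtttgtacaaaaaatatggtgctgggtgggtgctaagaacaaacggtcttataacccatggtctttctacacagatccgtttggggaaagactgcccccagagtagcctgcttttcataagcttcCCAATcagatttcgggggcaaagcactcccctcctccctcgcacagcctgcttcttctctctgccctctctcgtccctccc
The match began at position -109 in Col1a2 and -81 in Ptn, counted from the RefSeq start. CCAAT was present in 4 of the 17 windows found for the stroma markers and the 15 most stroma-high genes, a share of 23.5%, and in 33.8% of all 32851 windows.

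The share of stromal cells among Negative-gate cells showed no trend across the stages. It was 17.4% at E11.5 (8 of 46 cells), 19.6% at E12.5 (9 of 46), 21.2% at E13.5 (7 of 33) and 12.4% at E14.5 (17 of 137). It was 9.41% at E15.5 (8 of 85), 18.5% at E16.5 (17 of 92), 6 of 46 cells at E17.5 and 15.9% at E18.5 (7 of 44). Exact 95% intervals, which cover counting error only, all overlapped and ran from 4.15% to 17.7% at E15.5 and from 8.98% to 38.9% at E13.5. Over 17 libraries with at least 5 Negative-gate cells, share and embryonic day had a Pearson r of -0.03 (permutation p = 0.906) and a Spearman rho of 0.08 (permutation p = 0.756), both two-sided. Without the 2 libraries farthest from the median stage r was -0.07, and within the 12 libraries whose names begin with s05 it was -0.31. Libraries of 1 stage differed widely. At E12.5, 9 of 24 cells of library 9 were stromal (37.5%), against 0 of 22 in library 8. At E11.5, the shares were 7 of 23 cells in library 7 (30.4%), 1 of 8 in library 2 and 0 of 15 in library 1. Nearly all early stromal cells therefore came from 1 library per stage.

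**Figure D1:**
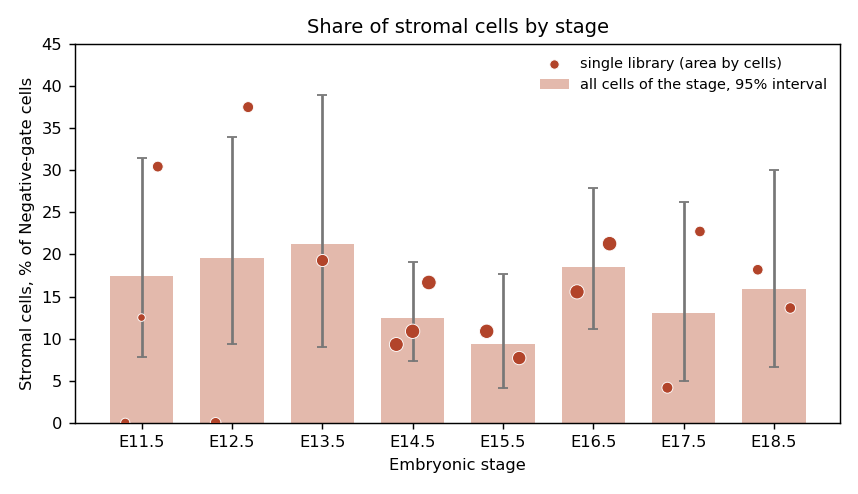
Bars give the percentage of Negative-gate cells that were stromal at each stage, with exact 95% binomial intervals, and points give single libraries with at least 5 such cells. Stages ran from 9.41% to 21.2%, while libraries ran from 0 to 37.5%.

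Stromal UMIs were summed per library. Pools of at least 5 cells were obtained in 9 libraries, with 62 cells in all and 5 to 10 cells and 626477 to 1733129 deposited UMIs per pool. They covered E11.5 to E17.5, with 2 pools each at E14.5 and E16.5 and 1 at each of the other 5 stages. There were 17 supporting-dominant pools from E11.5 to E18.5 with 5 to 36 cells, and all 9 libraries with a stromal pool also held one. The 2 classes are compared within these 9 libraries as log2 ratios of mean CPM after adding 1 CPM, with the SD of the 9 within-library log2 ratios. Because the cells were sorted into classes by their own transcripts, these ratios carry no test.

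Matrix genes set the stromal pools apart. Of the 26 genes on the list of fibrillar collagens and partners with at least 20 CPM in a class, 10 were higher in all 9 libraries and 0 were lower in all 9. Of all 5587 genes at that level, 3.81% were higher and 6.43% lower in all 9. The list holds Dcn, a gene of the rule. Its median log2 ratio was 2.22, against -0.04 over all these genes. Col1a2 had a lowest, median and highest pool value of 690, 1377 and 1808 CPM in stromal cells, and of 9.87, 174 and 309.7 CPM in supporting-dominant cells. The groups did not overlap, and the log2 ratio was 3.06 ± 1.34 (SD, n = 9 libraries). Fn1, which encodes fibronectin, had 261, 438 and 598 CPM against 12.6, 43.5 and 73.4 CPM, a log2 ratio of 3.27 ± 0.92. The elastic fibre gene Emilin1 had 499.9, 635 and 942 CPM against 21.6, 91.8 and 122 CPM, a log2 ratio of 3.12 ± 0.71. These 3 genes are among the 10 higher in all 9 libraries. The share of all genes whose pools did not overlap was not counted, here or below.

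The other collagen genes differed in how evenly stromal pools held them. Col3a1, a chain of type III collagen, averaged 1334 ± 506 CPM in stromal pools and 231 ± 115 CPM in supporting-dominant pools, and Bgn, the proteoglycan biglycan, 609 ± 258 and 61.6 ± 39.4 CPM. Lum, the collagen-binding proteoglycan lumican, ranged from 0 to 608 CPM over stromal pools and from 0 to 18.2 CPM over supporting-dominant pools. Serpinh1, the collagen chaperone, was among the 10 genes higher throughout, with a log2 ratio of 0.79 ± 0.20. P3h1 and P4ha1, which hydroxylate collagen proline residues, had ratios of -0.08 ± 0.72 and 0.04 ± 1.19. The ratio of Col18a1 was -1.15 ± 1.94, and it was lower in 7 of 9 libraries. Of 6 basement membrane genes at this level, 0 were higher and 0 lower in all 9 libraries.

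**Figure D2:**
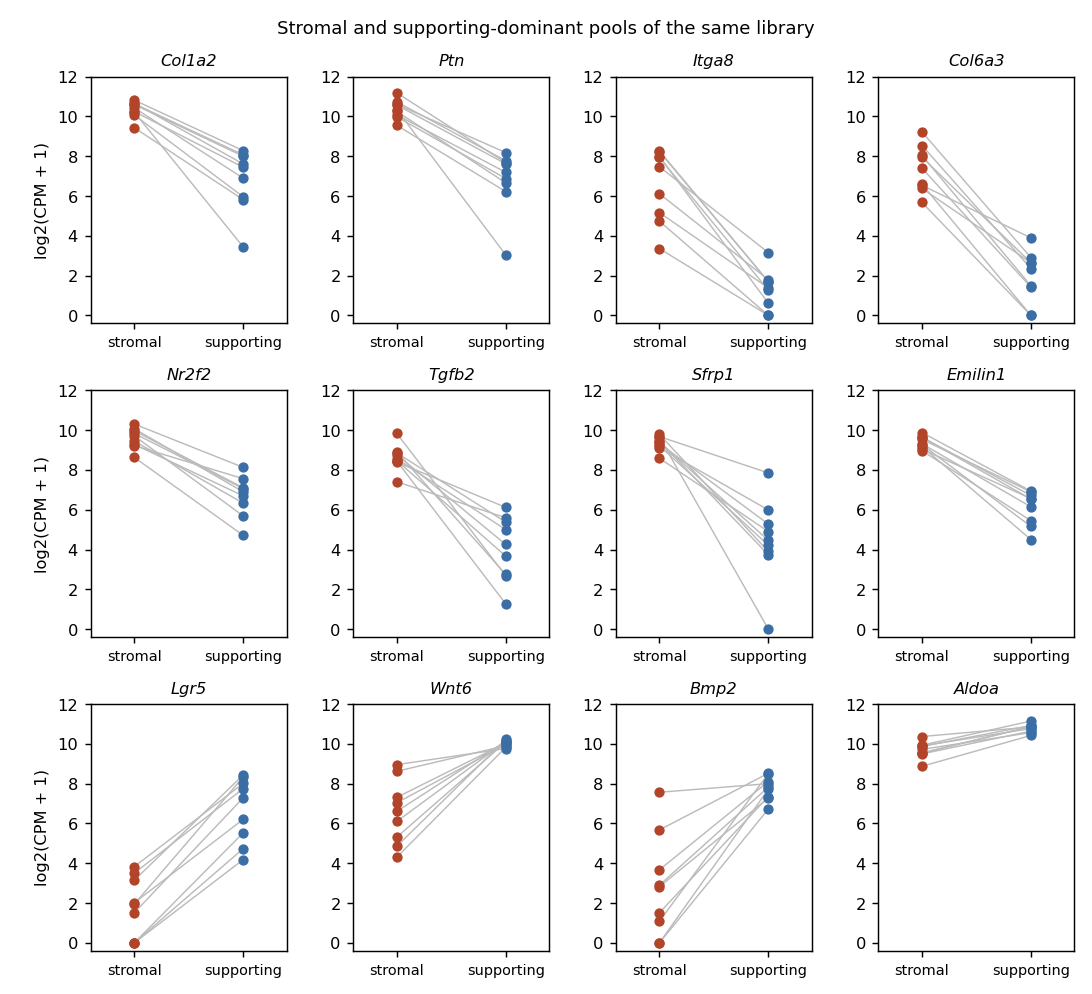
Each point is a library pool and each line joins the stromal (left) and supporting-dominant (right) pools of 1 of 9 libraries, on a log2(CPM + 1) axis. The first 8 genes were higher in all 9 stromal pools, and Lgr5, Wnt6, Bmp2 and Aldoa were lower in all 9.

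Among all genes with at least 50 CPM in stromal pools, 210 of 3545 were higher in all 9 libraries. The 15 with the highest ratios, leaving out the rule's own genes, were Itga8, Col6a3, Frem1, Lhfp, Dnm3os, Prrx1, Unc5c, Col13a1, Rgs5, Mrvi1, Pde3a, Tmem119, Gpr153, Snai1 and Tril. Itga8, an integrin chain that binds matrix, averaged 157 ± 123 CPM in stromal and 2.04 ± 2.39 CPM in supporting-dominant pools, a log2 ratio of 5.70 ± 1.48. Col6a3 averaged 218 ± 176 and 4.28 ± 4.31 CPM, a ratio of 5.37 ± 1.37. Frem1, an extracellular matrix gene, averaged 197 ± 103 and 4.34 ± 5.51 CPM. Itga8 was uneven over the stages: its stromal pools held 177 to 307 CPM from E11.5 to E14.5 and 9.25 to 68.4 CPM from E15.5 to E17.5. Reads of Dnm3os and of Dnm3 on the opposite strand cannot be told apart, since the strand setting of the counting is not given in the sources used here.

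Transcription factors of interstitial progenitors formed the next group. Of 15 such genes at 20 CPM or more, 7, the rule's Tcf21 among them, were higher and 1 lower in all 9 libraries. Their median log2 ratio was 2.38. All genes at this level had shares of 3.81% higher and 6.43% lower and a median of -0.04. The list's sum per cell had a median of 4539 CPM in stromal, 2608 CPM in supporting-dominant and 3912 CPM in surface epithelial cells. Nr2f2, the orphan receptor COUP-TFII of mesenchyme, had 396, 838 and 1266 CPM as lowest, median and highest stromal pool, against 25.2, 119 and 279 CPM in supporting-dominant pools. The pools did not overlap, and its ratio was 2.72 ± 0.76. Prrx1, a homeobox gene of mesenchyme, spanned 10.3 to 424 CPM in stromal pools and 0 to 36.1 CPM in supporting-dominant pools. Zeb2, a repressor of epithelial genes, averaged 284 ± 176 and 35.4 ± 23.4 CPM, and Meis2, a homeobox cofactor, 233 ± 92.3 and 31.9 ± 40.2 CPM. Nr5a1, the steroidogenic factor gene, was the 1 lower throughout, at 106 ± 118 and 320 ± 125 CPM.

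Homeobox cluster genes differed as sums more than singly. Of the genes at 20 CPM or more in a class, 0 of 5 HoxA and 1 of 4 HoxD genes were higher in all 9 libraries. Over all genes at that level the share was 3.81%. The sum over all 12 HoxA genes of the table ran from 127 to 662 CPM over stromal pools and from 0.880 to 54.9 CPM over supporting-dominant pools, and the sum was higher in 9 of 9 libraries. The HoxD sum ran from 134 to 660 CPM over stromal pools and from 45.1 to 214 CPM over supporting-dominant pools, so the groups overlapped. Per cell, its median was 252 CPM in stromal, 25.7 CPM in supporting-dominant and 309 CPM in surface epithelial cells. Hoxd10 had 28.2, 171 and 329 CPM as lowest, median and highest stromal pool, against 0, 29.2 and 63.5 CPM. Within stromal cells, the HoxA sum had a median of 275 CPM at E11.5, 140 CPM at E12.5, 392 CPM at E13.5 and 187 CPM at E14.5. At E15.5, E16.5, E17.5 and E18.5 the median was 127, 8.73, 4.43 and 3.76 CPM. The highest cell at E16.5 still held 1036 CPM. Stromal pools differed less by stage, with HoxA sums of 523 CPM at E11.5, 154 CPM at E12.5, 383 and 127 CPM at E16.5 and 165 CPM at E17.5.

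Secreted signals differed by family. Ptn averaged 1383 ± 461 CPM in stromal pools and 150 ± 85.9 CPM in supporting-dominant pools, and Mdk, its relative midkine, 2033 ± 509.9 and 727 ± 486 CPM. Both were higher in all 9 libraries. Tgfb2, a transforming growth factor ligand, had 169, 375 and 911 CPM as lowest, median and highest stromal pool, against 1.41, 18.1 and 68.5 CPM. Sfrp1, a secreted WNT antagonist, had 384, 677 and 881 CPM against 0 to 229.9 CPM. Cxcl12, a chemokine, averaged 304 ± 464 and 32.7 ± 29.7 CPM. The ligand Pdgfa went the other way from its receptor gene Pdgfra, with 22.2 ± 23.3 and 114 ± 57.2 CPM, lower in all 9 libraries.

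Genes of the supporting lineage outside the rule were lower in stromal pools. Of the 9 pregranulosa markers of the table other than the rule's Kitl, Rspo1 and Wnt4, 5 were lower in all 9 libraries, among them Wnt6, Lgr5, Bmp2 and Cdkn1b. The 4 others, Cst9, Nr0b1, Lhx9 and Wt1, were lower in 7 or 8. Among all genes at 20 CPM or more in a class, 6.43% were lower in all 9. Wnt6, a WNT ligand, had 18.8, 96.8 and 496 CPM as lowest, median and highest stromal pool, against 871, 1054 and 1194 CPM. Bmp2, a bone morphogenetic protein, averaged 29.6 ± 61.7 and 235 ± 90.2 CPM. The R-spondin receptor gene Lgr5 averaged 4.35 ± 4.92 and 162 ± 128 CPM, a log2 ratio of -4.92 ± 0.83. It was among the 6 lowest ratios of genes with at least 50 CPM in supporting-dominant pools, beside Gm15543, U90926, Gm2044, Cited4 and Cd164l2. The inhibin subunit genes Inha (124 ± 136 and 472 ± 196 CPM) and Inhbb (5.03 ± 5.60 and 76.5 ± 34.8 CPM) were lower in 8 and in all 9 libraries.

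Cell cycle genes were higher in stromal than in supporting-dominant cells. All 23 genes on the G2 and M phase list had positive ratios, 5 of them were higher in all 9 libraries, and the median log2 ratio was 2.21. For all genes at 20 CPM or more in a class, 3.81% were higher in all 9 and the median was -0.04. The list's summed level per cell had a median of 7987 CPM in stromal cells, 1329 CPM in supporting-dominant cells and 2185 CPM in surface epithelial cells. Mki67, the Ki-67 proliferation antigen, had 141, 647 and 1208 CPM as lowest, median and highest stromal pool, against 9.02, 34.1 and 285 CPM, and was higher in 8 of 9 libraries. The list's sum was higher in 8 of 9 libraries and about equal in library 7, at 12387 CPM in the stromal and 11376 CPM in the supporting-dominant pool of E11.5. Library 3 at E13.5 was the exception, at 2718 and 3976 CPM. Members were spread over a wide range at each stage, with 716 to 27387 CPM among 17 cells at E16.5. The stromal median was 12756 CPM at E11.5, 9356 CPM at E12.5, 3188 CPM at E13.5, 16940 CPM at E14.5, 11860 CPM at E15.5, 8973 CPM at E16.5, 1561 CPM at E17.5 and 1995 CPM at E18.5. The surface epithelial median was higher at E12.5, at 11352 CPM over 3 cells, and lower at the other stages. It was 7184 CPM at E11.5, 2865 CPM at E13.5, 8358 CPM at E14.5 and 2026 CPM at E15.5. At E16.5, E17.5 and E18.5 it was 2108, 1463 and 1549 CPM.

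S phase genes differed less. Of 18 genes, 0 were higher or lower in all 9 libraries, and the median ratio was 0.31. The cell cycle inhibitor genes Cdkn1b and Cdkn1c were lower in all 9 libraries, at 112 ± 87.3 and 443 ± 184 CPM in stromal pools against 351 ± 125 and 1076 ± 381 CPM. Glycolysis genes were lower too: 6 of 12 in all 9 libraries and 0 higher, with a median ratio of -0.72. Across all genes at 20 CPM or more in a class, 6.43% were lower and 3.81% higher in all 9, with a median of -0.04. Aldoa, the aldolase gene, had 469, 846 and 1323 CPM as lowest, median and highest stromal pool against 1373, 1846 and 2267 CPM, without overlap.

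**Figure D3:**
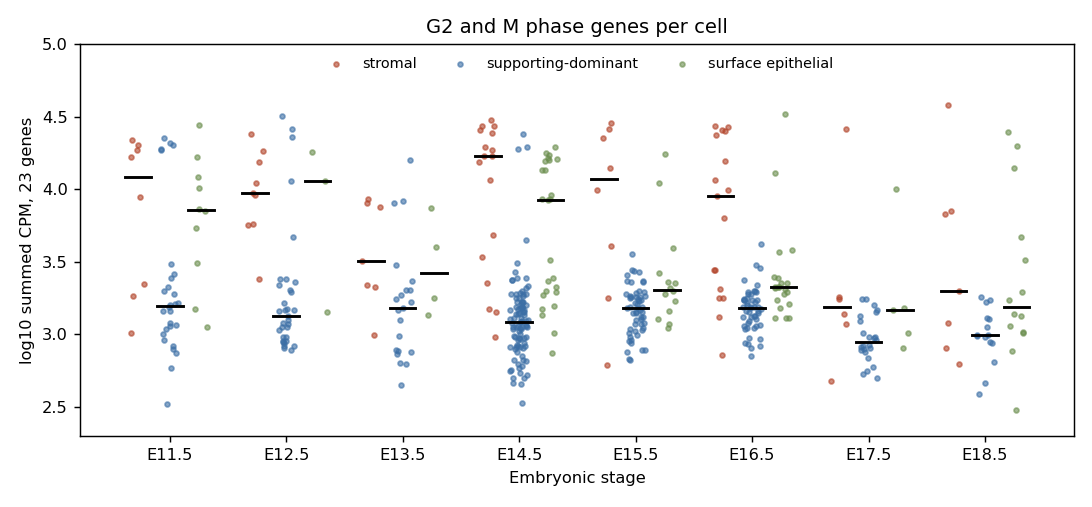
Each point is a cell, on a log10 axis of the summed CPM of 23 G2 and M phase genes, with black lines at the median of stromal (left), supporting-dominant (middle) and surface epithelial cells (right) of a stage. The stromal median lay above the supporting-dominant median at all 8 stages, as at E14.5 with 16940 and 1216 CPM.

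Growth factor and hormone genes were mixed. Igfbp5, an insulin-like growth factor binding protein, averaged 1337 ± 401 CPM in stromal and 459 ± 143 CPM in supporting-dominant pools, and Igfbp2 averaged 262 ± 128 and 626 ± 230 CPM. Of 8 steroidogenesis genes at 20 CPM or more, 0 were higher and 3 lower in all 9 libraries, among them Star, which encodes the cholesterol transfer protein, at 13.9 ± 13.8 and 52.3 ± 32.9 CPM. Of 19 imprinted genes, 2 were lower in all 9 libraries and 1 was higher, the growth regulator gene Plagl1. It averaged 148 ± 86.7 and 13.3 ± 12.8 CPM. Over all 5587 genes at 20 CPM or more in a class, 3.81% were higher and 6.43% lower in all 9. The steroid hormone receptor, germ cell, erythroid, mesonephric and glial and neuronal lists had 0 members higher or lower in all 9, and 0 macrophage markers reached 20 CPM.

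Perivascular and smooth muscle genes were higher in stromal pools in part. Of 9 at 20 CPM or more, 4 were higher and 0 lower in all 9 libraries, and 2 had a ratio below 0. The shares over all genes at this level were 3.81% higher and 6.43% lower. The list's sum had a median of 1979 CPM in stromal and 1782 CPM in supporting-dominant cells. In pools it was higher in 7 of 9 libraries. Gucy1a1, a subunit of the nitric oxide receptor, averaged 745 ± 265 CPM in stromal and 161 ± 89.3 CPM in supporting-dominant pools. Rgs5, a pericyte gene, was uneven, with 533 CPM in the stromal pool of E11.5, 540.3 CPM at E12.5 and 4.41 to 276 CPM in the 7 later pools. The endothelial gene Eng averaged 106 ± 115 and 5.54 ± 5.47 CPM, whereas Kdr, the VEGF receptor of endothelium, averaged 73.0 ± 75.2 and 46.4 ± 38.5 CPM. The part of other cell types in these values was not tested.

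Against surface epithelial cells the profile could be set side by side in the 5 libraries where both had pools. Col1a2 averaged 1470 CPM in stromal and 421 CPM in surface epithelial pools, Ptn 1663 and 233 CPM, and Itga8 133 and 1.15 CPM. Each was higher in 5 of 5 libraries. Dcn, a gene of the rule, was close, at 903 and 592 CPM, and higher in 4 of 5. The elastin gene Eln was lower in 5 of 5 libraries, at 198 and 362 CPM. Among the 96 cells with high Upk3b, 38 also had a stromal sum above the supporting sum. These cells had medians of 1024 CPM of Dcn, 109 CPM of Tcf21, 370 CPM of Col1a2 and 215 CPM of Ptn, beside 1390 CPM of Upk3b.

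The balance of the 3 rule genes varied between stages without a steady order, and carries no test since these genes chose the cells. Tcf21 was the highest of them in 5 of 8 members at E11.5, 9 of 9 at E12.5, 2 of 7 at E13.5, 9 of 17 at E14.5 and 4 of 8 at E15.5, and in 3 of 17, 0 of 6 and 2 of 7 at E16.5, E17.5 and E18.5. Dcn led in 3 of 8 members at E11.5, 0 of 9 at E12.5, 5 of 7 at E13.5, 2 of 17 at E14.5, 4 of 8 at E15.5, 12 of 17 at E16.5, 6 of 6 at E17.5 and 5 of 7 at E18.5. Pdgfra led in 6 of 17 members at E14.5 and 2 of 17 at E16.5. Dcn in stromal pools stood at 692 CPM at E11.5, 2.05 CPM at E12.5, 1402 CPM at E13.5, 201 and 323 CPM at E14.5, 1051 CPM at E15.5, 1120 and 1450 CPM at E16.5 and 1828 CPM at E17.5. The E12.5 value came from library 9 alone, where 1 of 9 members had a Dcn UMI. Tcf21 stood at 727, 1144 and 591 CPM at E11.5, E12.5 and E13.5, at 648 to 1414 CPM at E14.5 and E15.5 and at 302 to 589 CPM in the 3 pools of E16.5 and E17.5. At E18.5, where no pool reached 5 cells, the 7 members had medians of 2189 CPM of Dcn, 908 CPM of Tcf21 and 1970 CPM of Col1a2.

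Dcn varied with Col1a2 and Ptn among the members. Over the 79 cells, the Spearman rho was 0.58 between Dcn and Col1a2, 0.50 between Dcn and Ptn and 0.55 between Col1a2 and Ptn, against -0.10 between Dcn and Tcf21. These are descriptions, since the cells share libraries and depth. The rule kept cells by a sum that holds both Dcn and Tcf21, and such a choice can itself lower their correlation. The value of -0.10 is therefore not like for like with those of Col1a2 and Ptn, which the rule did not use. Dcn had a UMI in 62 of the 79 members. Over the 9 pools, the genes most like Dcn by Pearson correlation of log2(CPM + 1), among 5026 ranked, were Sulf1 (0.98), Gstm7 (0.95), Pigv (0.95), Lum (0.95), Pgrmc1 (0.94), Fam135a (0.93), Ankrd17 (0.92) and Col3a1 (0.92). Sulf1, a heparan sulfatase gene, stood at 2.05 CPM in the E12.5 pool and at 73.5 to 365 CPM in the 8 others. Lum was at 0 CPM in the E12.5 pool.

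**Figure D4:**
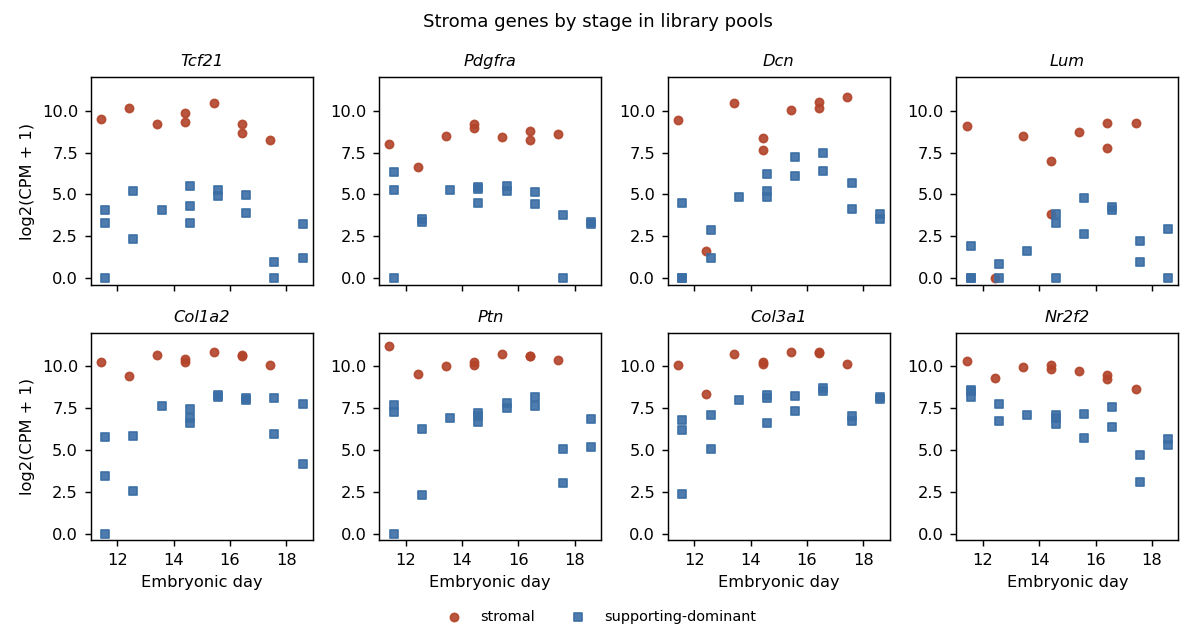
Library pools of stromal cells (circles) and supporting-dominant cells (squares) are plotted by embryonic day on a log2(CPM + 1) axis for 8 stroma genes. Dcn and Lum dipped in the single stromal pool of E12.5, at 2.05 and 0 CPM, while Col1a2 stayed within 690 and 1808 CPM in all 9 stromal pools.

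Stage effects within stromal cells were tested as a slope per embryonic day over the 9 pools. The test found few: of 5248 genes tested, 3 rose and 1 fell at an adjusted p under 0.05 (edgeR's quasi-likelihood test with Benjamini-Hochberg adjustment), or 0.0572% and 0.0191% and 0.0762% in all, while 351 had an unadjusted p under 0.05. Nr2f2 had a slope of -0.19 ± 0.07 log2 units per day (SE, adjusted p = 0.414), Tgfb2 0.20 ± 0.08 (adjusted p = 0.51), Col1a2 0.07 ± 0.06 (adjusted p = 0.933) and Ptn -0.02 ± 0.07 (adjusted p = 0.99). Of the 228 tested genes on the 31 lists, 2 passed, both from the germ cell list. The collagen list had 0 of 26 called and a median slope of 0.15, the S phase list 0 of 17 and -0.27, the G2 and M phase list 0 of 23 and 0.04, and the progenitor regulators 0 of 15 and -0.04. Over all tested genes the median was 0.01.

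Rgs2, a regulator of G protein signalling, rose with stage. Its lowest, median and highest stromal pools were 37.0, 171 and 1517 CPM, and the 2 highest, 1517 CPM in library 23 at E16.5 and 1259 CPM at E17.5, were late. The slope was 0.85 ± 0.14 log2 units per day (SE, edgeR adjusted p = 0.0136). Cd9, a tetraspanin gene, held 3.13 CPM at E11.5, 10.3 CPM at E12.5 and 324 to 382 CPM in the 3 pools of E16.5 and E17.5, with a slope of 1.01 ± 0.19 (adjusted p = 0.0433).

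The other calls were germ cell genes. Sycp1, a synaptonemal complex gene of meiosis, rose by 1.43 ± 0.23 log2 units per day (edgeR adjusted p = 0.0136), and Dppa3, the Stella gene, fell by 1.47 ± 0.28 (adjusted p = 0.0433). In the germ-sorted BVSC cells, Sycp1 stood at 39.5 CPM at E11.5 and 2649 CPM at E17.5. Their Dppa3 fell from 1678 CPM at E11.5 to 51.8 CPM at E16.5, then stood at 198 CPM at E17.5 and 797 CPM at E18.5. A Dppa3 UMI was found in 2 of 17 members at E16.5, 2 of 6 at E17.5 and 7 of 7 at E18.5, a stage without a stromal pool. Stromal pools held 0 CPM and 515 CPM of Sycp1 at E11.5 and E17.5, and supporting-dominant pools of the same libraries 0 and 496 CPM. All 6 members of E17.5 and all 7 of E18.5 had a Sycp1 UMI, and the summed germ cell markers had medians of 1557 and 1365 CPM in these members, against 50.2 CPM at E16.5. The part of germ cell RNA, and of the macrophage RNA in the E16.5 pools, in the stage slopes was not tested. All 4 calls were lost when the 4 members with high marker sums of another type were left out (0 of 5227 genes; 332 with an unadjusted p under 0.05; lowest adjusted p of the 4 genes 0.0601), and when libraries 7 and 9, the only pools of E11.5 and E12.5, were left out (0 of 5102; 312 with an unadjusted p under 0.05). DESeq2 called 55 genes in the same pools. With 1 library left out, edgeR called 23 genes without library 3, 7 without 13, 9 without 25 and 1 each without 21 and 23.

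The slopes of the classes were also compared with each other. Of 5638 genes tested over the 26 pools, 36 had a slope in stromal pools that differed from that in supporting-dominant pools, or 0.639%, of which 28 were steeper upward (0.497%) and 8 steeper downward (0.142%), by edgeR's quasi-likelihood test at an adjusted p under 0.05. With the library as a replicate block, 9 genes passed, 6 upward and 3 downward, and 8 of these were among the 36. In 21 of the 28 upward genes the mean level was higher in supporting-dominant pools. In 20, the supporting-dominant slope was within 0.3 log2 units per day of 0. How many of all tested genes met either condition was not counted. Among list members, Inha, Igf1, Cdc20 and Zim1 were called upward and 0 downward. Igf1 was 1 of 7 tested genes of the insulin-like growth factor list. Inha was 1 of 11 of the TGF-beta and BMP family and 1 of 8 of the steroidogenesis list. Cdc20 was 1 of 23 G2 and M phase genes, and Zim1 1 of 19 imprinted genes. The share called upward over all tested genes was 0.497%.

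Inha and Igf1, named here as list members, began low in stromal cells. Inha stood at 15.7, 16.4 and 22.7 CPM in the stromal pools of E11.5, E12.5 and E13.5 and at 284 and 385 CPM in those of E16.5, while supporting-dominant pools ranged from 153 to 827 CPM. Its difference of slopes was 0.91 ± 0.17 log2 units per day (SE, edgeR adjusted p = 0.00404), and 1.01 ± 0.17 with the block (adjusted p = 0.0137). Igf1, the insulin-like growth factor, stood at 3.13, 41.1 and 35.2 CPM at E11.5, E12.5 and E13.5 and at 310.4 to 659 CPM in the 6 later stromal pools. All 3 early stromal pools lay below the supporting-dominant range of 114 to 431 CPM. Its difference was 0.88 ± 0.20 (adjusted p = 0.0249), and Igf1 was not among the genes called with the block. Within stromal pools alone its slope was 0.88 ± 0.23 (adjusted p = 0.169).

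Among the genes with the steepest differences at 20 CPM or more in a class were, upward, Ankrd35, Dmrta1, Gm10471, Pnck and Drp2, with differences of 2.28, 1.85, 1.77, 1.76 and 1.68 log2 units per day. Drp2, a dystrophin-related gene, held 0 to 2.05 CPM in the stromal pools of E11.5 to E13.5 and 46.6 to 82.6 CPM in those of E16.5 and E17.5 (SE 0.27, edgeR adjusted p = 0.00119). Downward were Rab42, Lmo1, Tnik, Sesn2, Tspan12 and Arid5b, with differences of -2.16, -1.72, -1.40, -0.97, -0.79 and -0.48. Tspan12, a tetraspanin gene, held 354 CPM in the stromal pool of E11.5 and 0 CPM in that of E17.5, against 84.3 to 332 CPM over supporting-dominant pools. Tnik, a kinase of the WNT pathway, held 53.3 and 71.9 CPM at E11.5 and E12.5 and 0 to 4.56 CPM at E16.5 and E17.5. Of these genes, Ankrd35 and Tnik also passed with the block, at adjusted p = 0.0443 and 0.0373.

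The other genes that passed in both fits, named after their values were seen, were Rgs2, Mid1ip1 and Ifitm1 upward and Tmsb4x and Mfge8 downward. Rgs2 had a difference of 1.00 ± 0.14 log2 units per day (SE, edgeR adjusted p = 0.00011) and 0.95 ± 0.15 with the block (adjusted p = 0.00898). Mfge8, which encodes a secreted protein that bridges apoptotic cells and phagocytes, held 1109 to 2558 CPM in the 5 stromal pools of E11.5 to E14.5 and 527 to 910.3 CPM in the 4 later ones, against 243 to 903 CPM over supporting-dominant pools. It had a difference of -0.44 ± 0.08 (adjusted p = 0.00436). Arid5b, a chromatin gene named above, was not among the genes called with the block. Its level was 799 CPM in the stromal pool of E11.5 and 208 to 331 CPM in the 3 pools of E16.5 and E17.5. All supporting-dominant pools ranged from 66.0 to 515 CPM.

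**Figure D5:**
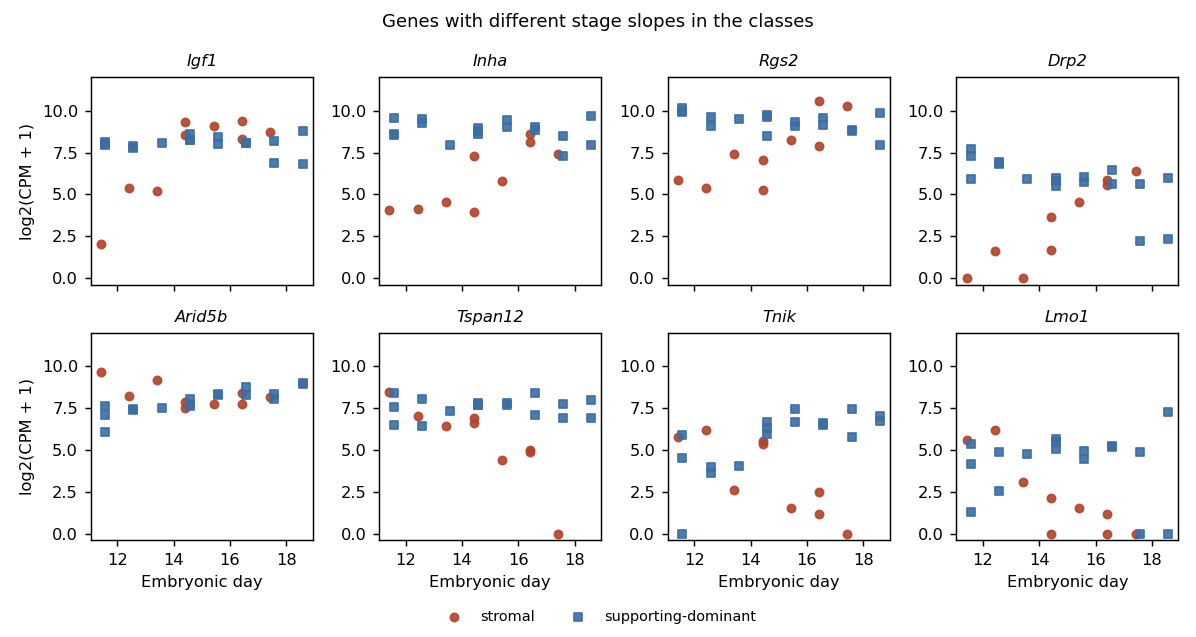
Library pools of stromal cells (circles) and supporting-dominant cells (squares) are plotted by embryonic day on a log2(CPM + 1) axis for 4 genes with upward and 4 with downward differences of slope. Igf1 was at 3.13 to 41.1 CPM in the 3 stromal pools up to E13.5, and Tspan12 at 0 CPM in that of E17.5.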

How the data were processed

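The authors deposited raw UMI counts, with genes in lines and cells in columns. The submitters' processing notes name STAR, UMI-tools, CASAVA 1.8, Subread and featureCounts beside the mm10 build, without roles. The annotation, strand setting and filters were not stated there. Stage, library, sort gate and deposited UMI total came from the deposited cell table, and numbers 1 to 26 name libraries in accession order. The count table read here held 16344 complete genes, on chromosomes 1 to 7, 10 and X and the start of 8, with a median of 51.3% of the deposited UMIs of a Negative-gate cell. Of 341 listed genes, 21 were not analysed here. 1 incomplete line was dropped. Positions are from GENCODE vM21.

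Members were found with the rule given at the start, and the members, the 31 gene lists and the alternatives were chosen with earlier results of these data known. For each library, the counts of a class were added up where it had 5 or more cells. Tests used edgeR 4.0.16 in R 4.3.3 (quasi-likelihood, TMM, filterByExpr, Benjamini-Hochberg at 0.05) with the embryonic day as a number, in stromal pools alone or in both classes with a class by day term. An SE is the absolute slope over the root of the F statistic. Scripts were tested on simulated data. The 9 rule genes received no p-value. Shares were compared with stage by a permutation test of 100000 draws (SciPy 1.17.1). Whether libraries stem from different animals is not in the labels: a p-value here reflects library-to-library spread, possibly technical, and CPM cannot tell fewer cells of a state from less RNA per cell.

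Named genes were the 10 called slopes with the largest rise and fall at 20 CPM or more plus called list members, the 6 largest called differences each way, the 15 highest and 6 lowest class ratios at 50 CPM or more that held in every library, list members at 20 CPM or more and the 8 genes most like Dcn. A few genes that meet this rule are not reported here. The stromal and supporting-dominant pools of 1 library hold cells of the same sequenced library, which pairs them. Over 4505 genes, their deviations from the class's stage line correlated at 0.04 to 0.21 in the 9 libraries, and in 5 the own library gave the highest correlation. Alternatives covered DESeq2 1.42.0, scaling, filters, pool size, stage coding, the rule's limits, the library name prefix, the block and each library left out. 3 further ones were chosen after seeing the data: pools of at least 3 cells, libraries 7 and 9 left out, and the 4 members with high marker sums of another type left out.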

Additional observations from a re-analysis of the deposited data

Results flagged for a closer look

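The stage slope in stromal minus supporting-dominant pools passed edgeR's test of the difference for the following genes, in log2 units per day. It was 2.28 for Ankrd35, 1.85 for Dmrta1, 1.77 for Gm10471, 1.76 for Pnck and 1.68 for Drp2. It was -2.16 for Rab42, -1.72 for Lmo1, -1.40 for Tnik, -0.97 for Sesn2, -0.79 for Tspan12 and -0.48 for Arid5b. With the library as a replicate block, Ankrd35 and Tnik passed. Over all alternatives the difference lost its call in 23 of 29 for Gm10471 (lowest 0.71), 18 of 30 for Sesn2 (weakest -0.33), 10 of 28 for Rab42, 8 of 30 each for Lmo1 and Tnik, 7 of 30 for Dmrta1, 6 of 30 for Pnck, 4 of 30 each for Ankrd35, Arid5b and Tspan12, and 3 of 30 for Drp2 (lowest 0.83).

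Cited4 stood at 44.0 CPM in the stromal pool of library 23, apart from the other 8 stromal pools, by Dixon's gap criterion. This was 1 of 26 genes checked in this way, and chance alone gives about 1 in 20.

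The member rule was also met outside the Negative gate. It held for 20 of 1302 BVSC cells and for 2 of 50 BV cells, which were not used in any comparison here.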

How the results depend on the processing

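The number of genes with a stage slope in stromal pools, 4 in the report, was the least stable result. It was 55 with DESeq2, 9 with upper-quartile scaling, 2 with deposited UMI totals, 132 without a filter, 2 with libraries merged by deposited replicate, 8 with the 2 times rule, 36 with the library name prefix as a covariate, 7 with pools of at least 3 cells and 0 without the 4 mixed members or without libraries 7 and 9. With 1 library left out it ran from 1 (libraries 21 and 23) to 23 (library 3). The listed genes among them, 2 in the report, numbered 11, 4, 1, 13, 1, 1, 8, 5 and 0 under the same settings in that order, 1 without the shallowest cells, and 0 to 6 with 1 library left out. Of 21 alternatives, 11 ended the call of Dppa3, 11 that of Cd9, 6 that of Sycp1 and 5 that of Rgs2. The sign held in each, but with pools of at least 3 cells the Dppa3 slope was -0.03 (adjusted p = 0.993). The differences of slope, 36 in the report, numbered 125 with DESeq2, 85 without a filter, 10 with early and late groups, 9 with the library as a replicate block, 16 with pools of at least 3 cells, 19 without libraries 7 and 9, and 26 to 54 with 1 library left out. The correlation of share with stage was 0.0374 with doubled limits, -0.30 with halved limits (permutation p = 0.257) and -0.19 to 0.15 with 1 library left out, and none of these passed 0.05. Members numbered 63 to 83 under other limits, and the genes higher in every library, 210 in the report, numbered 187 to 302. Pools of 10 cells could not be fitted, since 1 stromal pool was left, and no block can enter a fit of stromal pools alone. Causes were not tested. Pools of 5 to 10 cells, mostly 1 a stage, limit what a slope can show.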

Other observations

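Signalling lists that the text above did not describe were mixed in stromal pools relative to supporting-dominant pools of the same 9 libraries. Of 20 WNT pathway genes with at least 20 CPM in a class, 1 was higher and 4 were lower in all 9 libraries, and 13 had a log2 ratio above 0. Of 11 genes of the TGF-beta and BMP family, 2 were higher and 2 lower throughout, and the median was -0.01. Among 6 Hedgehog pathway genes, 0 were higher and 1 was lower, with a median of 0.31. The 5 retinoid handling genes had 1 lower throughout and a median of -0.18. Of 10 immediate early genes, 1 was higher in all 9 libraries, and of 6 complement and innate genes of fibroblasts, also 1. The share of all genes at this level was 3.81% for higher and 6.43% for lower in all 9 libraries.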
